A study of Mus musculus with 12 samples.

Results

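Neurotrophins are growth factors that support neurons, and 7 genes of this system were followed in the dorsal hippocampus of mice: the ligands Bdnf and Ntf3, the receptors Ntrk2, Ntrk3 and Ngfr, and the sorting receptors Sort1 and Sorcs1. They were taken by gene symbol from the table of 24985 genes, with earlier results of these data known, and all 7 passed the filter on low counts that left 14742 genes for testing. Bulk RNA-seq covered 12 wild-type C57Bl6/J mice in 4 groups of 3, all injected on 1 side into the right dorsal hippocampus at 6 months of age. PBS-control mice received PBS and ate standard chow from TestDiet. PBS-acetate mice received PBS and ate chow with 5% Na-acetate. Tau-control mice received 1 µg of AD tau, the sarkosyl-insoluble tau purified from the cortex of patients with Alzheimer's disease, and ate the standard chow, and tau-acetate mice received the same tau and ate the acetate chow. All were killed 6 months after injection and 24 hours after a remote memory recall, so the control mice share surgery and recall. The labels name LabDiet as the base of the acetate chow and TestDiet for the control chow, which the methods describe as matched in calories, and whether the bases differ otherwise is not given in the sources used here. The model is injected human tau in normal mice, with no transgene, and each library is bulk tissue.

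A neurotrophin is made as a proneurotrophin and cut to its mature form. The mature ligands bind Trk receptor tyrosine kinases: BDNF binds TrkB (gene Ntrk2) and NT-3 (gene Ntf3) binds mainly TrkC (gene Ntrk3). Both also bind the p75 receptor (gene Ngfr), which lacks a kinase, and proneurotrophins bind p75 together with sortilin (gene Sort1), a sorting receptor that also directs proBDNF within the cell. Sorcs1 encodes a related receptor of the same family that sorts membrane proteins in neurons. In the hippocampus, BDNF acting on TrkB is required for long-lasting synaptic potentiation and long-term memory, and activity switches on Bdnf through several alternative promoters.

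The libraries held 12983233 to 20218340 counts. Every marker gene of 15 cell type and region lists had counts, the markers of dentate granule, CA1, CA2 and CA3 neurons among them. Those of thalamus and cortex had counts as well, so this does not show which tissue was sampled. The labels give the sex as male, but Xist stood at 920 to 1340 CPM (counts scaled to a library total of 1000000) in each of the 12 libraries and 8 Y-linked genes had 0 counts in total, so the libraries go against that label. All 12 show this, so no comparison between groups can be given with and without libraries that differ in it.

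Bdnf lies at chr2:109674700-109727007 on the plus strand of GRCm38, and its annotation starts transcripts from several first exons that splice to a shared coding exon. The RefSeq promoter table (GRCm38.p6) held 7 starts for Bdnf and matched 5 of the 7 genes, with Ntrk3 and Sort1 missing. The 250 bases before each start were searched on both strands for the full cAMP response element TGACGTCA, its core TGACG and the E-box CACGTG. Of 32851 promoters in the table, 1.55% held the full element, 17.8% the core and 6.02% this E-box, and a full element also counts as a core match. The first Bdnf start is shown because it opens the gene, the third because it was the only Bdnf window with a match, and Ntrk2 because its protein is the receptor for BDNF. Capitals mark the match, the core read from the other strand, 35 bases before the start. The windows are chr2:109674450-109674699 and chr2:109692186-109692435 for Bdnf and chr13:58806319-58806568 for Ntrk2, all on the plus strand and outside annotated exons.
Bdnf start 1: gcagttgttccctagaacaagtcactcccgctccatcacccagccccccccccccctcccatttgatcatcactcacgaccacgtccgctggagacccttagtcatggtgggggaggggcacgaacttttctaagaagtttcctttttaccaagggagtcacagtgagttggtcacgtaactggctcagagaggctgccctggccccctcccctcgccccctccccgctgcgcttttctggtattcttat
Bdnf start 3: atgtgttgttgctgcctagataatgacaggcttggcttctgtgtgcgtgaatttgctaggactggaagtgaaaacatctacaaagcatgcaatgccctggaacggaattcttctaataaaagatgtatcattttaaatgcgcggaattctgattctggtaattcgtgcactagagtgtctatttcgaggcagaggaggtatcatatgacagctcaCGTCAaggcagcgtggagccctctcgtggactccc
Ntrk2: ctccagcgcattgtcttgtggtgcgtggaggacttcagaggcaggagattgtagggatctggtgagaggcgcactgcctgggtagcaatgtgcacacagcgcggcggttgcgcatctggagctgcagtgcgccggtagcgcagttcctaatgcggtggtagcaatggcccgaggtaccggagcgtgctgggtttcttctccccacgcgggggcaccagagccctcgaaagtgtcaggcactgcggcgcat
The Ntrk2 window and the other 6 Bdnf windows held none of the 3 motifs, which says only that these letters are absent there. Of the other members' windows, that of the first Ntf3 start held 1 match to the E-box, with 166 of its 250 bases in annotated exons, and those of the second Ntf3 start, Ngfr and Sorcs1 held none. The counts are summed over each whole gene, so they do not show which Bdnf start was used.

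Levels between genes were compared as CPM per kilobase of exon. Sort1 had the highest level of the 7, with a mean of 120 CPM per kb over the 12 mice, above 98.4% of the genes tested. Ntrk2 followed at 30.9 CPM per kb, above 89.6% of genes, and Bdnf at 12.0, above 71.9%. Ntf3 (4.86 CPM per kb, above 47.6%) and Ntrk3 (3.48, above 39.4%) lay near the middle of the tested genes. Sorcs1 (1.42, above 22.7%) and Ngfr (0.567, above 11.7%) were the lowest. Ntf5, a ligand outside the 7 (the gene of NT-4), had 0 to 6 counts per library and was not tested. Among the other sortilin family genes, Sorl1 had 49.8 CPM per kb, Sorcs3 9.14 and Sorcs2 6.30.

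The order of Sort1, Ntrk2 and Bdnf was the same in each of the 12 mice: Sort1 ranged from 114 to 127 CPM per kb, Ntrk2 from 27.5 to 34.4 and Bdnf from 10.4 to 13.8. Ntf3 (3.02 to 7.66) and Ntrk3 (3.07 to 3.80) overlapped, so on this scale their order is within the spread between mice. It depends on the length used: before division by length Ntrk3 had 92.5 to 115 CPM and Ntf3 5.18 to 13.1 CPM, with no overlap. Sorcs1 (0.969 to 1.93) and Ngfr (0.269 to 0.946) did not overlap. The union of annotated exons used here as length is 30170 bases for Ntrk3 and 19292 for Ntrk2, against 6217 for Bdnf and 1714 for Ntf3. Both Ntrk2 and Ntrk3 encode full-length receptors with a kinase and truncated receptors without one, which gene counts do not separate.

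**Figure D1:**
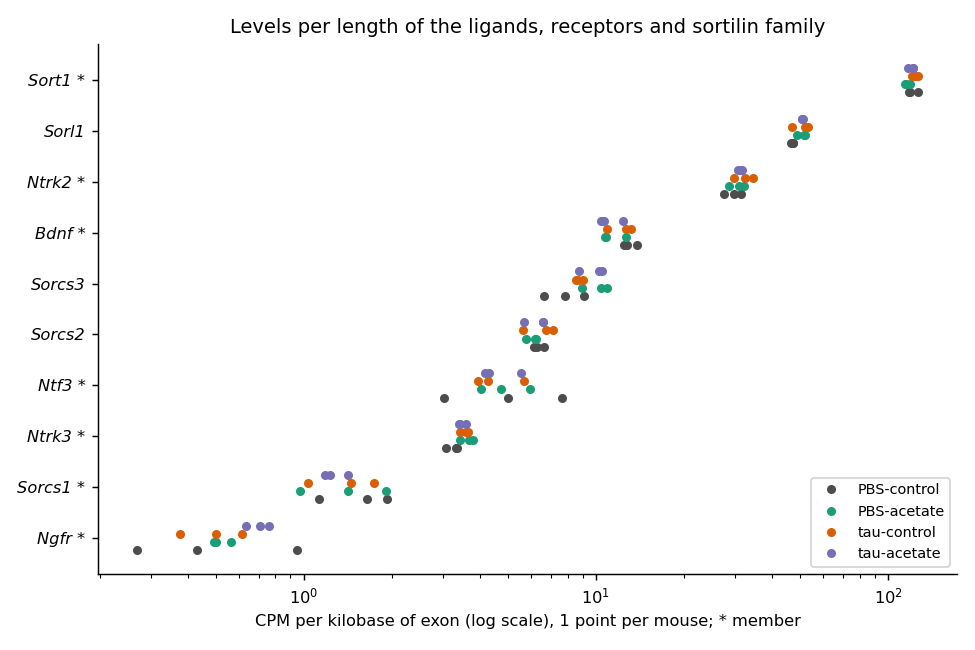
Levels of the 7 genes and of Sorl1, Sorcs2 and Sorcs3 in CPM per kilobase of exon (log axis), with 1 point per mouse, coloured by group; asterisks mark the 7 genes followed here. Sort1 stood at 114 to 127 and Ngfr at 0.269 to 0.946.

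None of the 7 genes was called in any of the 6 comparisons by edgeR's quasi-likelihood test over the 12 mice and 14742 genes (adjusted p below 0.1). This is to be read against the share of all tested genes called: 0.0136% for tau injection under the control chow, 0.136% for tau injection under the acetate chow, 8.84% for the diet contrast in PBS-injected mice and 0.0611% for the same contrast in tau-injected mice. The interaction of diet and injection called 1.56% of genes and the test for any difference among the 4 groups 3.73%. At an unadjusted p below 0.05, 2 of the 7 (Bdnf and Ntrk3) passed for acetate in PBS-injected mice, where 20.8% of all genes did. Only Ntrk3 passed for tau on the control diet (all genes: 9.65%) and for the interaction (13.0%). None passed for tau on the acetate diet (10.3%), for acetate in tau-injected mice (10.9%) or for any difference (18.3%). DESeq2 also called 0 of 7 in each of the 6 comparisons. The replicate numbers met the criterion for pairing, a correlation of deviations over 0.1 in every same-number pair, only between PBS-control and PBS-acetate mice. Between other groups, mice with different numbers correlated up to 0.244, so passing 0.1 does not by itself show that mice were paired. With the replicate number as a block in these 6 mice, edgeR called 2 of the 7 (Bdnf and Ntrk3) and 20.7% of all genes, an alternative chosen after seeing the data. For acetate in PBS-injected mice, 2 of the 7 were higher and 5 lower, with a median log2 fold change of -0.08 against 0.0042 over all genes.

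**Figure D2:**
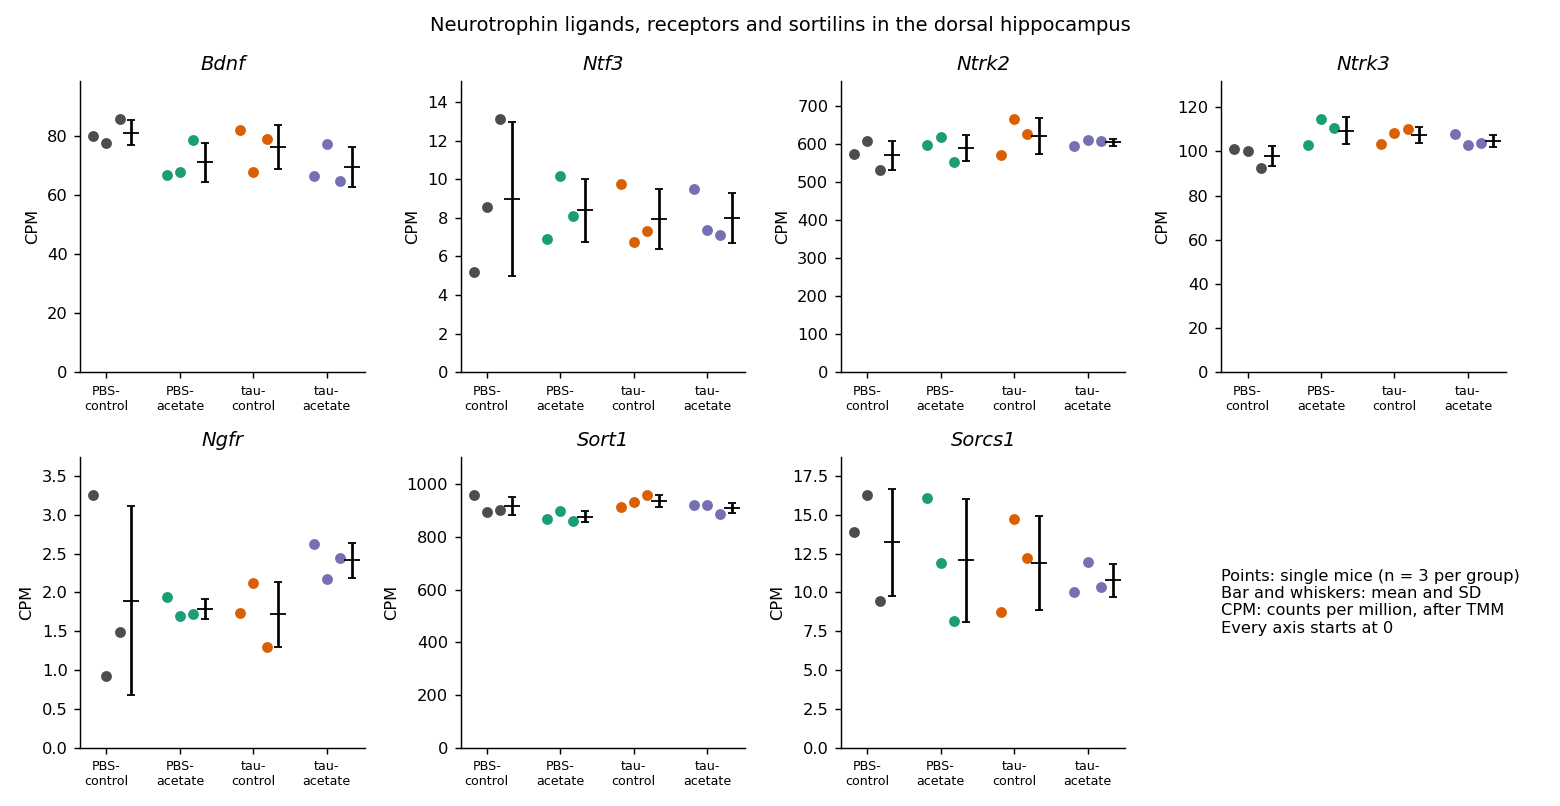
CPM of the 7 genes by group, 1 point per mouse, with the mean and SD of 3 mice as a bar and whiskers; every axis starts at 0. Sort1, Ntrk2 and Ntrk3 had CVs of 3.42% to 5.97% over the 12 mice, and Sorcs1, Ntf3 and Ngfr of 23.1% to 32.2%.

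Of the ligands, Bdnf was lower on the acetate diet in means, and passed the test in PBS-injected mice only with the replicate block or without 1 mouse. In PBS-control mice Bdnf stood at 79.7, 77.5 and 85.6 CPM, and in PBS-acetate mice at 66.6, 67.5 and 78.6 CPM. The groups overlapped through 1 PBS-acetate mouse, which lay above the lowest PBS-control mouse, and within same-numbered mice Bdnf was lower on acetate in 3 of 3 pairs. With so little overlap most ways of pairing these mice give that count, so it adds little. The fitted log2 fold change for acetate in PBS-injected mice was -0.19 ± 0.08 (SE, n = 3 per group), with a 95% interval of -0.37 to -0.01 (edgeR, adjusted p = 0.203). Without the third PBS-acetate mouse it was -0.27 and was called (edgeR, adjusted p = 0.0784), and over the 12 fits that each left out 1 mouse the adjusted p ran from 0.0784 to 0.501. With the replicate block in the 6 mice the log2 fold change was also -0.19, with an interval of -0.30 to -0.086, and was called (edgeR, adjusted p = 0.0133). The block was chosen after seeing the data and no source says that the numbers pair mice, so this call adds no support.

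Bdnf in the tau-control mice was 81.9, 67.7 and 78.8 CPM, and in the tau-acetate mice 66.4, 77.1 and 64.7 CPM. These groups overlapped, and the log2 fold change for acetate was -0.13 ± 0.08 (SE, n = 3 per group; interval -0.31 to 0.05; edgeR, adjusted p = 0.605). The acetate difference did not differ detectably between tau- and PBS-injected mice (interaction 0.06 on the log2 scale, interval -0.19 to 0.31; edgeR, adjusted p = 0.898). The tau difference of Bdnf was -0.09 on the control diet (interval -0.27 to 0.09) and -0.03 on the acetate diet (interval -0.21 to 0.15). Group means, in CPM, were 80.9 ± 4.17 for PBS-control, 70.9 ± 6.67 for PBS-acetate, 76.1 ± 7.51 for tau-control and 69.4 ± 6.73 for tau-acetate (SD, n = 3 each).

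Ntf3, the ligand of TrkC, was low and variable. It stood at 5.18, 8.57 and 13.1 CPM in the PBS-control mice, a range that held every other mouse of the study. The other 9 mice lay between 6.77 and 10.2 CPM. No log2 fold change of Ntf3 exceeded 0.17 in size in the 4 pairwise comparisons. Their 95% intervals had outer ends of -0.80 and 0.66, and at this spread and n differences inside each interval were not excluded. Without the third PBS-control mouse, the tau difference on the control diet went from -0.17 to 0.23 and the acetate difference in PBS-injected mice from -0.08 to 0.32.

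Of the receptors, Ntrk2 varied by 5.97% (coefficient of variation, CV) over the 12 mice, from 531 to 665 CPM. It stood at 571, 606 and 531 CPM in PBS-control, 596, 618 and 552 in PBS-acetate, 571, 665 and 626 in tau-control and 593, 610 and 607 in tau-acetate mice. All groups overlapped. The tau difference on the control diet was 0.12 ± 0.06 on the log2 scale (SE, n = 3 per group; interval -0.0046 to 0.25; edgeR, adjusted p = 0.539), and the other 3 pairwise differences lay between -0.04 and 0.05 with intervals inside -0.17 to 0.18.

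Ntrk3, the gene of TrkC, was lowest in the PBS-control mice. These stood at 101, 100 and 92.5 CPM, against 103, 115 and 111 CPM in PBS-acetate mice, so the ranges did not overlap. That was so for 26.3% of all genes tested in this comparison. The log2 fold change for acetate in PBS-injected mice was 0.16 ± 0.06 (SE, n = 3 per group; interval 0.04 to 0.28; edgeR, adjusted p = 0.109). Over the 12 fits that left out 1 mouse the adjusted p ran from 0.0985 to 0.368, and it passed 0.1 only without the first tau-acetate mouse. Ntrk3 was higher on acetate in 3 of 3 same-number pairs, which any pairing of ranges without overlap gives, so this count adds nothing. With the replicate block in the 6 mice the difference of 0.16 (interval 0.05 to 0.27) was called (edgeR, adjusted p = 0.0401). As for Bdnf, the block was chosen after seeing the data, so this call adds no support.

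The tau-control mice had 103, 108 and 110 CPM of Ntrk3, also above all 3 PBS-control mice, in a comparison where the ranges of 13.5% of genes did not overlap. The log2 fold change for tau on the control diet was 0.13 ± 0.06 (SE, n = 3 per group; interval 0.01 to 0.25; edgeR, adjusted p = 0.468). Tau-acetate mice stood at 108, 103 and 104 CPM and overlapped both the PBS-acetate and the tau-control mice. The interaction was -0.19 ± 0.08 on the log2 scale (edgeR, adjusted p = 0.304). Group means of Ntrk3 were 97.9 ± 4.72 CPM for PBS-control, 109 ± 5.97 for PBS-acetate, 107 ± 3.54 for tau-control and 105 ± 2.70 for tau-acetate (SD, n = 3 each). These comparisons share the PBS-control mice, and the third of these was the lowest of the 12.

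Ngfr, the gene of p75, had few counts, 12 to 56 per library. It stood at 3.26, 0.927 and 1.49 CPM in PBS-control mice, the highest and the lowest value of the study in 1 group. PBS-acetate mice had 1.94, 1.70 and 1.72 CPM, tau-control mice 1.73, 2.12 and 1.30, and tau-acetate mice 2.63, 2.18 and 2.44. The tau-acetate mice lay above all PBS-acetate mice, a comparison in which the ranges of 16.2% of all genes did not overlap, and above all tau-control mice (14.4%). Their log2 fold changes were 0.44 (interval -0.25 to 1.13; edgeR, adjusted p = 0.687) and 0.48 (interval -0.22 to 1.19; edgeR, adjusted p = 0.646). Without the first PBS-control mouse, the acetate difference of Ngfr in PBS-injected mice went from -0.13 to 0.55.

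**Figure D3:**
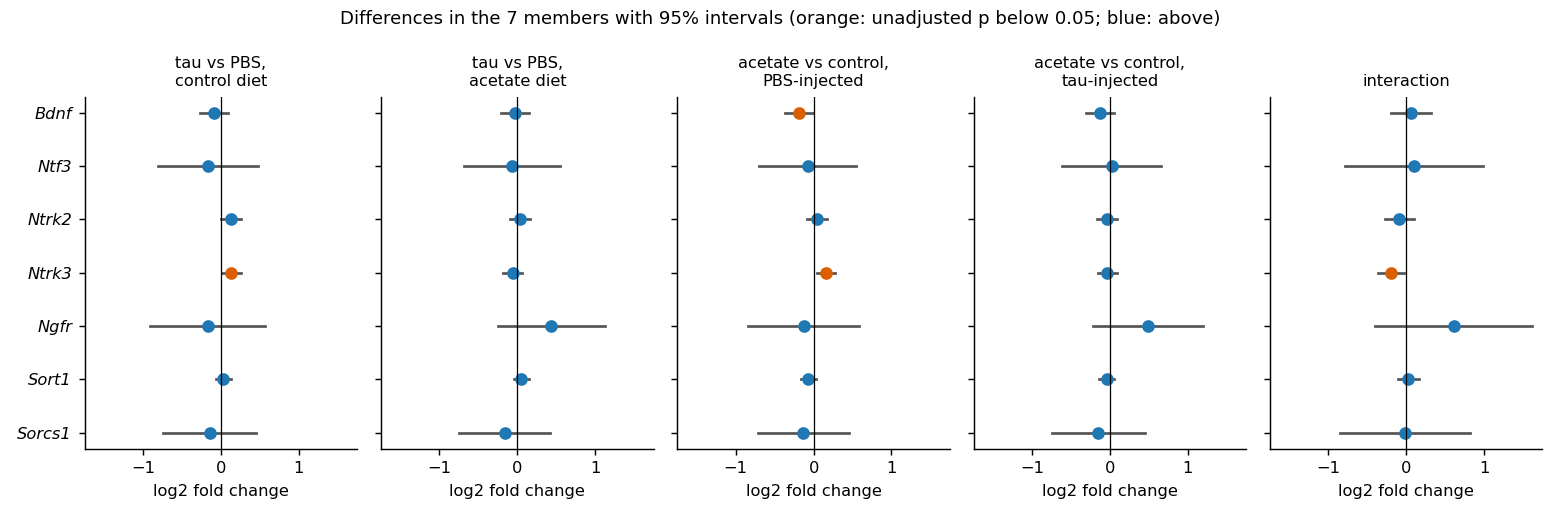
Log2 fold changes (points) of the 7 genes with 95% intervals (lines) in the 4 pairwise comparisons and the interaction of diet and injection; orange marks an unadjusted p below 0.05. The 4 orange points are Bdnf at -0.19 and Ntrk3 at 0.16, 0.13 and -0.19, and the intervals of Ngfr, Ntf3 and Sorcs1 are the widest.

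Of the sorting receptors, Sort1 was the steadiest of the 7 genes, with a CV of 3.42% over the 12 mice against 0.833% from counting alone. It stood at 959, 895 and 902 CPM in PBS-control, 870, 900 and 862 in PBS-acetate, 914, 935 and 961 in tau-control and 922, 921 and 888 in tau-acetate mice. Its 4 pairwise log2 fold changes lay between -0.07 and 0.05, and their 95% intervals ran from -0.16 to 0.15. Sorcs1 stood at 13.9, 16.3 and 9.48 CPM in PBS-control and 16.1, 11.9 and 8.18 in PBS-acetate mice. Tau-control mice had 8.73, 14.7 and 12.2 CPM of Sorcs1, and tau-acetate mice 10.0, 12.0 and 10.3. Each Sorcs1 group overlapped the others, its CV was 23.1% (7.28% from counting), and its 4 log2 fold changes of -0.16 to -0.13 had intervals from -0.75 to 0.45.

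The CV over the 12 mice was 5.60% for Ntrk3, 9.73% for Bdnf, 25.0% for Ntf3 and 32.2% for Ngfr, against 2.45%, 2.93%, 8.71% and 17.8% from counting alone. The CV of Ntrk2 from counting was 1.03%, so each of the 7 CVs was above its counting error.

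Across the 12 mice, the 21 pairs of the 7 genes had Pearson r (log2 CPM) between -0.61 and 0.58, and none passed an adjusted p below 0.05 (permutation test, 100000 resamples, two-sided; smallest adjusted p = 0.412). Bdnf and Ntrk2 had the strongest negative value, r = -0.61 (permutation p = 0.0368, adjusted p = 0.412) with Spearman's rho = -0.48 (permutation p = 0.122, adjusted p = 0.642). Without the 2 mice farthest from the Bdnf median r was -0.69, and with group means removed it was -0.71. Ntrk2 and Sorcs1 had r = 0.58 (permutation p = 0.0448, adjusted p = 0.412) and rho = 0.57 (permutation p = 0.0587, adjusted p = 0.617). Without the 2 mice farthest from the Ntrk2 median this r was 0.47, and with group means removed 0.87.

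The genes most like each member over the 12 mice were sought among those with at least 5 CPM, by Pearson r of log2 CPM. Bdnf was closest to Impa1 (r = 0.96), Gnb1 (0.94) and Crispld1 (0.93). Ntrk2 was closest to Clasp1 (0.95), Lrrc7 (0.93) and Plxna2 (0.92), and Ntrk3 to Pprc1 (0.88), Bbof1 (0.88) and Phf12 (0.88). Ngfr was closest to Lrrc47 (0.88), Unc93b1 (0.87) and Armc5 (0.84), and Ntf3 to Dact2 (0.85), Ets2 (0.84) and Zfp354c (0.84). Sort1 was closest to Dpp8 (0.91), Dlg2 (0.90) and Abl2 (0.90), and Sorcs1 to Ttf1 (0.91), Spag9 (0.90) and Angpt1 (0.85). Each is the top of about 11500 genes compared, all read from the same libraries, and is a description only.

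The wider pathway was read from a list of 127 symbols, of which 126 were in the table and 120 were tested. Of these 120, 0 were called for tau on either diet or for acetate in tau-injected mice. At an unadjusted p below 0.05, 11 passed for tau on the control diet (7 higher; all genes: 9.65%), 10 for tau on the acetate diet (7 higher; all genes: 10.3%) and 10 for acetate in tau-injected mice (5 higher; all genes: 10.9%), so no share of the 120 was above its background. DESeq2 called 0, 1 and 2 of the list beside 86, 112 and 175 of all genes. The diet contrast in PBS-injected mice called 15, with 5 higher and 10 lower, which is 12.5% of the list beside 8.84% of all genes. There 19 genes of the list were higher and 22 lower at an unadjusted p below 0.05, a share above the 20.8% of all genes. The list was chosen with earlier results of these data known, so shares above background are a description only and do not show enrichment. The median log2 fold change of the list there was -0.0078 against 0.0042 over all genes. This count depended on the mice kept, though leaving out a compared mouse also makes its group smaller. It was 0 without the second PBS-acetate mouse and 4 without the first PBS-acetate or the third PBS-control mouse. Without either other PBS-control mouse it was 8 or 9, and without the third PBS-acetate mouse 18. With all mice 5 passed an adjusted p below 0.05. With the replicate block in the 6 mice, chosen after seeing the data, 39 of the 120 were called, beside 20.7% of all genes. The count over all genes moved with it, from 1303 to 15, 315 and 248 without the second PBS-acetate, the first PBS-acetate and the third PBS-control mouse.

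Among p75 partners and effectors (13 tested, 1 higher and 1 lower), Bex1, an adaptor that binds p75, rose by 0.54 ± 0.11 on the log2 scale (SE, n = 3 per group; edgeR, adjusted p = 0.0229). It stood at 23.3, 28.8 and 31.7 CPM in PBS-control and 42.8, 40.2 and 38.5 CPM in PBS-acetate mice, with no overlap. Mapk8, the gene of the kinase JNK1, fell by 0.18 (edgeR, adjusted p = 0.0529), from 104, 110 and 111 CPM to 95.2, 93.2 and 98.6 CPM. Its difference in tau-injected mice was -0.18 too, uncalled (edgeR, adjusted p = 0.208).

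Of the 9 trafficking genes, Rab11a, a GTPase of recycling endosomes, was the 1 called. It had 114, 111 and 117 CPM in PBS-control and 97.0, 95.5 and 94.9 CPM in PBS-acetate mice, a log2 fold change of -0.25 ± 0.06 (SE, n = 3 per group; edgeR, adjusted p = 0.0243). In tau-injected mice its difference was -0.22 (edgeR, adjusted p = 0.182). Rab11a also had the smallest p of the list for any difference among the 4 groups (edgeR, adjusted p = 0.0270), where 7 of the 120 genes were called (all genes: 3.73%), Bex1, Camk2g, Mapk8, Pcsk2 and Rps6ka3 among them.

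In the calcium arm (7 tested, 1 higher and 1 lower), Camk2g, a subunit of the calcium-dependent kinase CaMKII, rose by 0.28 (edgeR, adjusted p = 0.0278). Of 17 genes of the ERK arm 3 were lower, led by Rps6ka3, the gene of the ERK-activated kinase RSK2, at -0.32 (edgeR, adjusted p = 0.0313), with Rap1b, a small GTPase, at -0.24 (edgeR, adjusted p = 0.0593). Of 22 Trk adaptors 2 were lower, Gab1, a docking protein, at -0.48 (edgeR, adjusted p = 0.0596) and Crk, an SH2 and SH3 adaptor, at -0.18 (edgeR, adjusted p = 0.0543). Of 10 tested processing genes, Pcsk2, a prohormone convertase, was lower at -0.28 (edgeR, adjusted p = 0.0321) and 1 other was higher. A further 5 of the 15 were outside the rule for naming genes and are named because the plot shows them: Sorcs3 (0.36), Pcsk7 (0.27) and Usf1 (0.21) were higher, and Camk4 (-0.45) and Nras (-0.22) lower. Over the 12 fits that left out 1 mouse, the call was lost in 1 for Bex1, Camk2g and Rps6ka3, in 2 for Rab11a, in 3 for Pcsk2 and in 4 to 9 for the others named here, most often for Usf1.

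**Figure D4:**
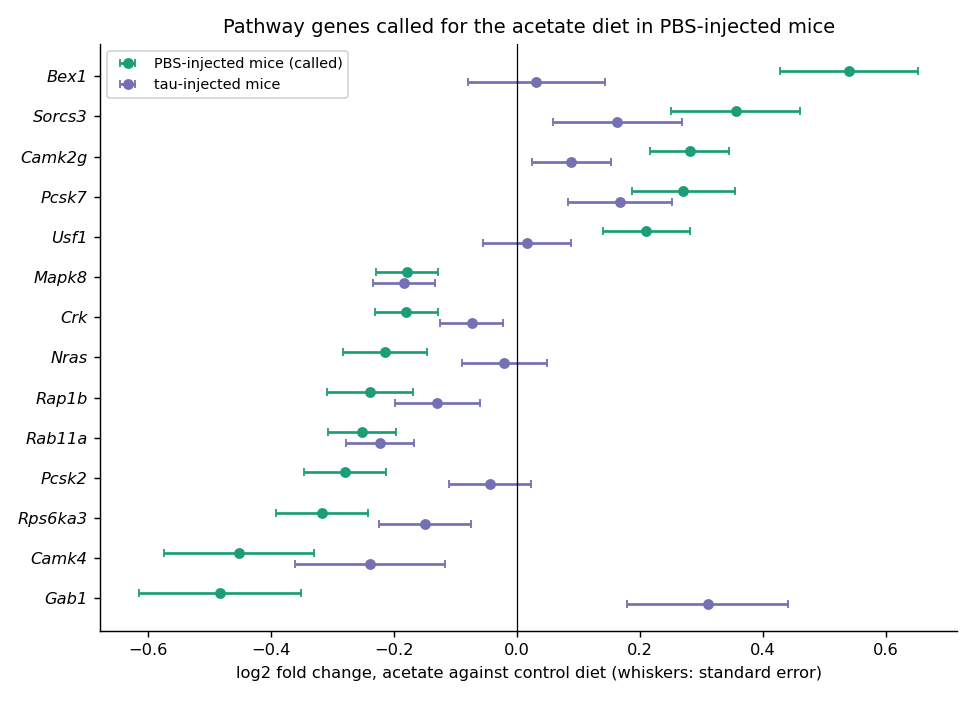
Log2 fold change (acetate over control diet) of 14 of the 15 pathway genes called in PBS-injected mice (green), with the same genes in tau-injected mice (purple); whiskers are standard errors. Bex1 at 0.54 and Gab1 at -0.48 lie farthest out in PBS-injected mice, and none of the 14 was called in tau-injected mice.

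The ligands (3 tested), the Trk and p75 receptors (3 tested) and the genes that respond to BDNF (9 tested) held no called gene in any comparison in the fit over 12 mice without a block. Of the response genes, Homer1, a synaptic scaffold gene, had the smallest p, for tau on the control diet. It stood at 116, 122 and 116 CPM in PBS-control and 122, 133 and 150 CPM in tau-control mice, a log2 fold change of 0.20 ± 0.08 (SE, n = 3 per group; edgeR, adjusted p = 0.428). Of 12 regulators of Bdnf transcription, only Usf1 was called, as above, and its call was lost in 5 of the 7 other settings that kept all mice of the comparison, DESeq2 among them (adjusted p = 0.121).

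The interaction of diet and injection called 2 of the 120 (all genes: 1.56%), Pcsk6, a proprotein convertase, and Gab1. Pcsk6 had 39.7, 32.7 and 31.5 CPM in PBS-control, 30.8, 29.2 and 27.9 in PBS-acetate, 28.1, 31.4 and 32.4 in tau-control and 39.2, 34.6 and 36.1 in tau-acetate mice. Its interaction was 0.51 ± 0.13 on the log2 scale (SE; edgeR, adjusted p = 0.0792). Gab1 had 50.8, 47.1 and 46.1 CPM in PBS-control, 36.7, 35.6 and 30.7 in PBS-acetate, 38.7, 32.0 and 44.7 in tau-control and 53.8, 50.1 and 38.5 in tau-acetate mice, with an interaction of 0.79 ± 0.19 (SE; edgeR, adjusted p = 0.0803). Acetate went with lower levels of both in PBS-injected and higher levels in tau-injected mice, but of these 4 differences only that of Gab1 in PBS-injected mice was called. The adjusted p of Pcsk6 was 0.126 in PBS-injected and 0.296 in tau-injected mice, and that of Gab1 in tau-injected mice 0.413 (edgeR). The Gab1 interaction missed the threshold in 10 and the Pcsk6 interaction in 8 of the 12 fits that left out 1 mouse.

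Marker genes of several hippocampal regions and cell types also differed between the groups. From PBS-control to PBS-acetate mice all 5 CA1 markers were higher, 4 of them called, in a comparison that called 8.84% of all genes. The CA1 sum went from 452 to 589 CPM up to 718 to 946 CPM. All 6 CA3 markers were lower, 4 of them called, and their sum went from 432 to 522 CPM down to 221 to 372 CPM. All 6 CA2 markers were lower too, with 0 called. All 8 oligodendrocyte markers were lower, 3 of them called. They summed to 7146 to 9214 CPM in PBS-control, 4473 to 6163 in PBS-acetate, 4736 to 5737 in tau-control and 5402 to 8684 CPM in tau-acetate mice. In tau-control mice CA1 markers summed to 606 to 767 CPM and CA3 markers to 329 to 418 CPM, and in tau-acetate mice to 653 to 935 and 259 to 396 CPM. No marker of these lists was at 0 in all libraries. Their part in the differences of Bdnf, Ntrk3 and the called pathway genes was not tested. In bulk tissue, fewer cells of a type, less RNA per cell and another share of a region in the sample cannot be told apart.

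The summed levels of 3 further lists did not overlap between PBS-control and PBS-acetate mice, a comparison in which the ranges of 26.3% of single genes did not overlap. Thalamic markers summed to 143 to 332 CPM in PBS-control, 332 in 1 mouse, against 116 to 122 in PBS-acetate, 106 to 141 in tau-control and 121 to 143 CPM in tau-acetate mice. Choroid plexus markers summed to 87.5 to 119 CPM in PBS-control, 65.0 to 81.8 in PBS-acetate, 93.6 to 204 in tau-control and 80.0 to 480 CPM in tau-acetate mice. Inhibitory neuron markers summed to 673 to 718 CPM in PBS-control, 751 to 829 in PBS-acetate, 764 to 797 in tau-control and 704 to 840 CPM in tau-acetate mice. Some single markers were also called for acetate in PBS-injected mice, where 8.84% of all genes were. These were 3 of 8 astrocyte markers (2 higher) and 2 of 5 oligodendrocyte precursor markers (1 higher). Of mural markers 1 of 6 was called (higher), and of choroid plexus markers 1 of 6 (lower). None of the thalamic or inhibitory neuron markers was called. The part of these lists in the results above was not tested.

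The sums of the other lists over the 12 mice were 497 to 801 CPM for dentate granule and 292 to 455 for CA2 markers. Astrocyte markers summed to 4793 to 5424 CPM, oligodendrocyte precursor markers to 210 to 288, microglial markers to 413 to 516, endothelial markers to 157 to 192 and mural markers to 164 to 218 CPM. Meningeal markers summed to 13.3 to 28.5 CPM and cortical markers to 85.0 to 112 CPM.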

How the data were processed

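Dorsal hippocampus of the injected hemisphere was profiled by stranded poly(A) RNA-seq in 12 mice, 3 per group. The authors aligned reads with STAR 2.5.2a to GRCm38, used SAMtools 1.1 and counted reads per gene with HTSeq 0.9.1 by strand and exon, and the annotation is not given in the sources used here. The deposited values are raw counts per gene, with no normalization. From these counts, edgeR 4.0.16 (R 4.3.3; TMM scaling, the filterByExpr filter at 10 counts and a total of 15, robust quasi-likelihood test, 1 mean per group over 12 mice, 8 residual degrees of freedom) gave log2 fold changes with 95% intervals and Benjamini-Hochberg adjusted p over 14742 genes, called below 0.1, the threshold the study used for this comparison. Its methods name DESeq2 and 0.05. DESeq2 1.42.0, 0.05 and other settings were alternatives. CPM uses the TMM-scaled library total, and length is the union of exons in GENCODE M21. The counting CV covers counting error only.

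The script was tested on simulated data. Libraries of a group differed by more than sampling noise. No source says what a replicate number marks, and over all groups the correlations of mice with different numbers ran from -0.234 to 0.244. Deviations from group means correlated over 0.1 in all 3 same-number pairs of PBS-control and PBS-acetate mice (r = 0.158 to 0.335; other pairs -0.226 to 0.0614) and in 1 of the 15 same-number pairs of the other groups, so a block was added for that comparison after seeing the data (2 residual degrees of freedom). The labels number the samples 1 to 3 in each group, and each was taken as 1 mouse. The main test weighs differences of group means against the spread between these samples, estimated over all groups with information shared across genes. The 7 members, the pathway list and 15 marker lists were chosen with earlier results of these data known. Named pathway genes are at most the 10 smallest p among those called in a comparison, and the smallest p of a sublist with none called. Results for some pathway genes, 1 of them called, are not reported here. The 3 genes most like each member come from genes with at least 5 CPM. Members' opposite-strand neighbours were not in the table, and counting used strand.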

Additional observations from a re-analysis of the deposited data

Results flagged for a closer look

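Pcsk6 and Gab1 were the 2 of 120 pathway genes called by the test of the interaction, a share close to the 1.56% of all genes called. At an unadjusted p below 0.05, 6 of the 120 had a higher and 10 a lower interaction, where 13.0% of all genes passed. The difference of the acetate effects was 0.51 on the log2 scale for Pcsk6 (edgeR, adjusted p = 0.0792; -0.25 in PBS-injected and 0.26 in tau-injected mice) and 0.79 for Gab1 (edgeR, adjusted p = 0.0803; -0.48 in PBS-injected and 0.31 in tau-injected mice). Over the 12 fits that left out 1 mouse the Gab1 value ran from 0.67 to 0.92 and the Pcsk6 value from 0.39 to 0.57, and the call was lost in 10 of the fits for Gab1 and in 8 for Pcsk6. Summed CA3 and oligodendrocyte marker levels also differed between the groups, as given above, and their part in these values was not tested.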

How the results depend on the processing

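None of the 7 genes was called under the alternatives that kept all 12 mice (DESeq2, DESeq2 size factors, no filter on low counts, an adjusted p below 0.05, the replicate block over all 12) or under the fit of the 6 compared mice without a block. With the replicate block in the 6 PBS-injected mice, 2 were called (Bdnf and Ntrk3), and 2986 of all genes instead of 1303. With 1 mouse left out, 0 to 1 was called for acetate in PBS-injected mice (Bdnf or Ntrk3, as given above) and 0 in the other comparisons. All 210 log2 fold changes under these other settings kept their direction, though the stricter threshold is among the settings and cannot alter a fold change. Of 420 with 1 mouse left out, 36 changed sign, all uncalled. Many of these 420 left out a mouse outside the pair of groups compared, which keeps both of those groups whole, so the share overstates stability.

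The ranges over those fits that cross 0 were as follows. For Bdnf the tau difference on the acetate diet ran from -0.11 to 0.052 and the interaction from -0.022 to 0.14. For Ngfr the tau difference on the control diet ran from -0.47 to 0.50, the acetate difference in PBS-injected mice from -0.43 to 0.55 and the interaction from -0.061 to 0.91. For Ntf3 the tau difference ran from -0.46 to 0.23 on the control and -0.22 to 0.10 on the acetate diet, the acetate difference from -0.36 to 0.32 in PBS-injected and -0.12 to 0.20 in tau-injected mice, and the interaction from -0.30 to 0.39. For Ntrk2 the tau difference on the acetate diet ran from -0.0060 to 0.073, and the acetate difference from -0.0014 to 0.095 in PBS-injected and -0.092 to 0.012 in tau-injected mice. For Sorcs1 the tau difference ran from -0.34 to 0.034 on the control and -0.37 to 0.088 on the acetate diet, the acetate difference from -0.38 to 0.076 in PBS-injected and -0.32 to 0.042 in tau-injected mice, and the interaction from -0.22 to 0.23. For Sort1 the interaction ran from -0.0050 to 0.046. The cause of these sign changes was not tested beyond the omitted mouse.

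Over all 4 groups the replicate numbers did not pair mice: 4 of 18 same-number correlations of deviations passed 0.1, 3 of them between PBS-control and PBS-acetate mice, and 3 of 12 mice correlated best with their own number. With the replicate block over all 12 mice, 0 of the 7 genes was called, 349 of all genes instead of 230 for the interaction and 9 instead of 2 for tau on the control diet. DESeq2 called 86 and 112 genes for tau on the control and acetate diets (edgeR: 2 and 20), 1371 and 175 for acetate in PBS- and tau-injected mice (1303 and 9), 434 for the interaction (230) and 1277 for any difference (550). At an adjusted p below 0.05 the counts were 0, 0, 541, 3, 43 and 125. Without the filter on low counts they were 37 for tau on the acetate diet and 56 for acetate in tau-injected mice, and in the 6 compared mice 35 for tau on the control diet and 2 for acetate in tau-injected mice. With 1 mouse left out they ran from 0 to 16, 0 to 93, 15 to 1425, 1 to 66, 8 to 442 and 40 to 726. The pathway count for the interaction, 2, was 0 at an adjusted p below 0.05 and 1 without the filter. For any difference, 7 became 15 by DESeq2. Counting error was largest for Ngfr (a CV of 17.8% against 32.2% over the mice), and Ntf3 and Sorcs1 varied by 25.0% and 23.1% over the mice against 8.71% and 7.28% from counting.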
